A study of Capra hircus with 36 samples.

Results

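The liver libraries of the study are the 6 small RNA libraries labelled as liver among 36 libraries in all, taken by their tissue label, and they are compared with the other 30 libraries. Small RNA was sequenced from liver and from spleen, lung, kidney, heart and longissimus muscle of 6 adult female goats aged around 3 years. The high-altitude animals were 3 Tibetan Goats living at 3000 m and the low-altitude animals 3 Chuandong White Goats, a low-altitude breed, living at 600 m. The study took all 6 tissues from each goat. Altitude and replicate number are taken as the goat here, but the labels do not state that a replicate number is the same animal in every tissue, and the tests and counts over goats below rest on this pairing. By the paper, the Tibetan Goats were stocked or nomadic and the Chuandong White Goats home-reared, with natural pasture grass as feed. Body weight was lower in the Tibetan Goats. Breed, home region, rearing, body weight and altitude change together between the groups and cannot be told apart. No goat was treated, and the tissues are bulk samples.

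MicroRNAs (miRNAs) are short RNAs that guide Argonaute proteins to partly matching sites in messenger RNAs, which are then translated less or degraded. Each hairpin precursor can give a 5p and a 3p strand (arm), and usually one arm is kept and the other is lost. In liver, hepatocytes are known for a very high level of miR-122, whose loss in mice disturbs lipid metabolism, while miR-194 comes from clusters shared with miR-192 and miR-215 that are active in liver, kidney and gut epithelium.

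Levels are given as normalised CPM, the unit of the cpm function of edgeR, for which each library total is first multiplied by its TMM factor. The liver libraries held 7108635 to 9205957 counts, so that 3 counts equal 0.326 to 0.422 CPM of the plain total. Liver had the fewest counts of all tissues, 50426051 in sum, beside 55945279 in spleen and up to 78073982 in muscle. The numbers of miRNAs with reads were not adjusted for depth. Of 1391 mature miRNAs, 575 to 655 had reads in a liver library. The mean was 613 ± 32.8 (SD, n = 6) in liver and 585 ± 15.4 over the other tissues of the same goats, higher in liver in 5 of 6 goats, with spleen (625) and lung (614) above liver (two-sided exact sign-flip test over goats, p = 0.09375, adjusted p = 0.09375). The most abundant miRNA took 17.7 ± 1.81% of a liver library and 27.8 ± 2.41% of the other libraries, lower in liver in 6 of 6 goats (exact p = 0.03125, adjusted p = 0.046875). Single tissues differ from this: in heart it took 11.1 to 18.9%, beside 14.7 to 20% in liver. The 10 most abundant together took 69.9 ± 5.8% against 76.1 ± 2.43%, again lower in 6 of 6 goats, with the same exact p and adjusted p, and lung (70.7 ± 4.13%), spleen (72.5 ± 2.15%) and heart (73.3 ± 2.15%) were within the spread of liver. Entries with equal counts in every library, such as chi-miR-133a-3p and chi-miR-133b-5p, count there under each name. With such entries kept once, an alternative chosen after seeing the data, the most abundant took 17.7 and 29.8% and the top 10 70 and 75.2%, lower in liver in 6 of 6 goats, with heart at 17.9% for the most abundant. With 6 goats there are 64 sign flips and the smallest possible two-sided p is 0.03125.

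The tissue label was checked against 3 markers, miR-122-5p, miR-194-5p and miR-148a-3p, which match 4 entries because miR-148a-3p is listed both as a goat and as a conserved mammalian sequence. All 4 entries had reads in every liver library. Their summed level was 159561, 116250 and 302635 normalised CPM in the high-altitude livers and 99351, 78009 and 72201 in the low-altitude livers. In the 30 other libraries it ran from 4125 to 28479, below every liver library. All 6 livers therefore carry the markers of their label. No marker was at 0, and by mean chi-miR-148a-3p was the most abundant of them, though chi-miR-122-5p was above it in liver of high-altitude goat 3 and of low-altitude goat 2. In bulk tissue, fewer cells of a type and less RNA per cell cannot be told apart, here and in all comparisons that follow.

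Several of the most abundant miRNAs of liver had a higher mean in another tissue. The 10 most abundant miRNAs of liver took 68.6% of all liver counts and 39.6% of the counts of the other tissues. These 10 were picked by their level in liver, so a higher share in liver follows from the choice. chi-miR-26a-5p had the highest mean, with 89811 to 147009 normalised CPM (median 131888) in the 6 livers, and its means in heart, lung and muscle were 148176, 127738 and 167447. This order rests on the scaling. By CPM of the plain library total its highest mean was in lung, and among the other tissues its lowest was in muscle. Against the mean of the other tissues its log2 fold change was 0.14 ± 0.18 (SE), so this miRNA does not set liver apart. It was the most abundant miRNA in 2 of the 6 livers, both of low-altitude goats, chi-miR-143-3p in another 2, and chi-miR-148a-3p and chi-miR-122-5p in 1 each. chi-miR-143-3p, best known from smooth muscle, followed with 45962 to 160688 normalised CPM (median 101776). Its mean of 323651 in spleen was higher than in liver. chi-miR-22-3p had 55432 to 65443 normalised CPM (median 57751) in liver and a mean of 61007 in muscle, and the ranges of liver and muscle overlap (log2 fold change -0.04 ± 0.23). By CPM of the plain library total its highest mean was in liver. Against heart, kidney, lung and spleen its log2 fold changes were 1.19, 1.36, 2.71 and 2.03, each at an edgeR adjusted p under 0.05. chi-miR-30a-5p had 36196 to 88542 normalised CPM (median 58537) and a higher mean, 106294, in kidney, where it is known from podocytes and tubules. chi-let-7f-5p had 10992 to 48135 normalised CPM (median 18797) with muscle next at 21093, or spleen next by CPM of the plain library total. chi-miR-27b-3p, a regulator of lipid metabolism genes, had 11618 to 26322 normalised CPM (median 16764), far under heart at 80249.

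chi-miR-101-3p, known for targeting EZH2, had 9250.0 to 27506 normalised CPM (median 14511) in liver. It was highest in liver in 6 of 6 goats, with muscle next at 8205 (log2 fold change 0.96 ± 0.26, adjusted p = 0.00811), and the ranges of liver and muscle overlap. By CPM of the plain library total kidney was next. chi-miR-101-3p passed the test against all 5 tissues but not the fold threshold used below. Of the 10 leading miRNAs of liver, chi-miR-148a-3p, chi-miR-122-5p and chi-miR-194-5p were called higher in liver than in each other tissue.

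A miRNA was called where the edgeR quasi-likelihood test gave an adjusted p under 0.05 and the log2 fold change was at least 1.5 in size. Against the mean of the 5 other tissues, 125 of 1391 miRNAs (8.99%) were higher in liver and 43 (3.09%) lower. With the goat as a block these counts were 84 and 38, and without each goat in turn 87 to 108 and 33 to 41. With 6 tissue groups in place of 12 groups of tissue and altitude they were 295 and 43, and with the stricter glmTreat test 69 and 11. Many of the higher ones are scarce: 44 of the 125 had a mean under 1 CPM in liver, 39 had 1 to 10 CPM, 42 had at least 10 and 23 at least 100. Reads in all 6 livers were found for 48, and for 45 a single library held over 50% of the liver counts. The lower ones were more abundant, with 34 of 43 at 10 CPM or more over the other tissues and 18 at 100 or more. Scaled by the library total alone, 160 were higher and 19 lower, and the median log2 fold change of all miRNAs moved from -0.17 to 0.17, while DESeq2 called 77 higher and 67 lower, so the balance of higher and lower rests on the scaling and on the tool.

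Single tissues differed from liver to different extents. Liver was higher than heart for 90 (6.47%) and lower for 73 (5.25%), than kidney for 49 (3.52%) and 77 (5.54%), than lung for 62 (4.46%) and 56 (4.03%), than muscle for 89 (6.4%) and 98 (7.05%), and than spleen for 65 (4.67%) and 61 (4.39%). Without each goat in turn the counts of higher and lower were 55 to 72 and 56 to 66 against heart, 24 to 39 and 52 to 82 against kidney, 40 to 58 and 46 to 53 against lung, 62 to 79 and 73 to 85 against muscle, and 51 to 60 and 36 to 50 against spleen. Scaled by the library total alone, the counts of higher and lower became 138 and 42 against heart, 71 and 48 against kidney, and 192 and 59 against muscle. Most calls concerned few tissues: of 1391 miRNAs, 74 were called higher in liver than in 1 tissue, 39 than in 2, 27 than in 3, 13 than in 4 and 14 than in all 5. Called lower in liver were 128, 64, 19, 8 and 4 in the same order.

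The 14 miRNAs called higher in liver than in each of the 5 tissues (1.01% of all) are termed liver-enriched. Together they took 17.3% of liver counts and 1.09% of the counts of the other tissues. As they were chosen for being higher in liver, the direction of this difference follows from the choice. Without each liver library in turn, chosen after seeing the data, the liver share was 13.9 to 18.9%. By mean, kidney was the next highest tissue for 9 of them, spleen for 2, lung and muscle for 1 each, and the last had no reads outside liver. For 3 of the 14 the next tissue changes when CPM of the plain library total is used. Apart from both arms of miR-194 and the miRNA without reads outside liver, the mean ± SD of the next tissue overlaps that of a further one. In 10 of the 14 all 6 livers lay above all 30 other libraries, which was the case for 13 of all miRNAs (0.935%). By class, 7 are goat miRNAs of miRBase, 6 match other mammals only, and 1 has no match and is called an entry here.

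chi-miR-148a-3p, which in mice acts on the LDL receptor and other lipid genes, had 29026 to 127893 normalised CPM (median 80931) in liver and 7794 to 27706 normalised CPM (median 11279.6) in lung, the next tissue by mean (13554 ± 7123, SD, n = 6). Heart (13189.5 ± 2246, median 12891) cannot be separated from lung and had the higher median. All 6 livers lay above all other libraries, and the high-altitude livers (127893, 96738 and 121206) lay above the low-altitude livers (65125, 29026 and 42347). The log2 fold change against lung was 2.44 ± 0.30 (adjusted p = 3.21e-07) and against heart 2.46 ± 0.30 (adjusted p = 2.28e-07, highest in liver in 6 of 6 goats). The difference between altitudes was not called, with a log2 difference of liver contrasts of 0.61 ± 0.44 (adjusted p = 1). The conserved entry conserve-chi-miR-148a-3p had 1125 to 3008 normalised CPM (median 2076) in liver and a mean of 897 in kidney. It was below the fold threshold against kidney (1.33 ± 0.35). How reads were shared out between these near-identical entries cannot be seen in counts, so their separate levels are uncertain.

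chi-miR-122-5p, the miRNA typical of hepatocytes, had 4038 to 166273 normalised CPM (median 18953) in liver. In kidney, the next tissue by mean, it had 8.49 to 299 normalised CPM (median 78.8). Muscle (87 ± 80.7, SD, n = 6) lies within the spread of kidney (99.6 ± 107), and the highest library outside liver had 299. It made up 5.2% of liver counts and 0.00462% of the counts of the other tissues. Liver of high-altitude goat 3 held 62.9% of these liver counts, and without it, a step chosen after seeing the data, the share was 2.36%. The spread among livers was wide: the high-altitude livers had 15707, 4038 and 166273, the low-altitude livers 22198, 32922 and 15091, so both extremes were high-altitude goats. The log2 fold change was 8.78 ± 1.25 against muscle and 8.70 ± 1.25 against kidney (adjusted p = 3.44e-06 and 7.99e-06, 6 of 6 goats). Its other arm, chi-miR-122-3p, varied less, with 28.3 to 94.6 normalised CPM (median 50.5), and did not follow it from liver to liver. The livers with 4038 and 166273 of the 5p arm had 54.6 and 39.1 of the 3p arm. Muscle was next for the 3p arm, at 0.0946 to 7.7 normalised CPM (median 0.727), with no overlap (log2 fold change 5.04 ± 1.03, adjusted p = 0.00052).

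chi-miR-194-5p, of the clusters shared with miR-192 and miR-215, was the steadiest of the abundant markers, with 9287 to 14648 normalised CPM (median 13336) in liver. Kidney followed at 2169 to 2944 normalised CPM (median 2355), and the remaining tissues had means from 129 (lung) to 256 (spleen). Liver and kidney do not overlap (log2 fold change 2.40 ± 0.27, adjusted p = 9.81e-08, 6 of 6 goats). The 3p arm showed the same order at a low level, with 9.26 to 56.1 normalised CPM (median 25.6) in liver and 2.78 to 7.14 normalised CPM (median 5.63) in kidney (log2 fold change 2.27 ± 0.53, adjusted p = 0.00352). The call of the 3p arm was lost with glmTreat, at low altitude alone, and without high-altitude goat 2 or low-altitude goat 1. chi-miR-215-5p, a relative of miR-192 by sequence, had 167 to 2943 normalised CPM (median 398) in liver and 465 ± 597 (SD, n = 6) in kidney. A single kidney library reached 1619, and 1 liver held 54.7% of the liver counts. chi-miR-215-5p was called against 4 tissues and not against kidney (log2 fold change 1.796, adjusted p = 0.137). Of the 4 entries for miR-194 and miR-215, 3 were higher than the mean of the other tissues, beside 8.99% of all miRNAs, with a median log2 fold change of 4.77 beside -0.17 over all miRNAs. Their summed level had a lowest, median and highest liver value of 9484, 13846 and 17049 normalised CPM, and a mean of 2892 in kidney. miR-192 itself has no entry in the counts. The list holds the marker chi-miR-194-5p and was chosen with earlier results of these data known.

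conserve-chi-miR-31-5p, known elsewhere from epithelial cells, had 869 to 1633 normalised CPM (median 1411) in liver. Kidney (108 ± 23.2, SD, n = 6) and lung (99.4 ± 35.5) followed and do not differ beyond their spread, so that either could be called next. All livers lay above all other libraries (log2 fold change against kidney 3.63 ± 0.30, adjusted p = 5.34e-10). chi-miR-335-3p, whose gene lies in an intron of the imprinted gene MEST, had 74.8 to 421 normalised CPM (median 266) in liver and 16.6 to 46 normalised CPM (median 28.4) in kidney, without overlap, and lung (19.1 ± 9.15, SD, n = 6) cannot be separated from kidney (29.6 ± 10.4). Its log2 fold change against kidney was 3.12 ± 0.41 (adjusted p = 1.45e-06). The 5p arm of the same precursor reached a mean of 258 in liver and 173 in kidney and was not called against kidney (0.55, adjusted p = 0.488). With both arms summed the fold change against kidney fell to 1.31.

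conserve-chi-miR-9142-5p had 119 to 332 normalised CPM (median 252) in liver and 0.411 to 25.5 normalised CPM (median 1.65) in kidney, where a single library of a low-altitude goat held the highest value. Liver was again clear of every other library (log2 fold change against kidney 6.19 ± 1.11, adjusted p = 0.000241). The 3p arm of this precursor had 3.08 to 16.3 normalised CPM (median 10.2) in liver and a mean of 0.183 in kidney, with no overlap (log2 fold change 5.88 ± 1.17, adjusted p = 0.00174). Both arms were thus enriched in the same 6 livers. conserve-chi-miR-885-3p, whose partner arm is known as a liver miRNA of human serum, was close to the detection limit, with 1.18 to 5.76 normalised CPM (median 2.33) in liver and a mean of 0.186 in spleen, beside 0.16 in lung. The liver counts were 10, 26 and 23 in the high-altitude goats 1 to 3 and 50, 27 and 65 in the low-altitude goats 1 to 3 (log2 fold change against spleen 3.85 ± 1.16, adjusted p = 0.0309). All livers lay above all others, yet the call was lost without any 1 of the 6 goats.

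Another 4 of the 14 rest on some livers only. chi-miR-450-3p, of an X-linked cluster with miR-424 and miR-503, had liver counts of 190, 1 and 1 in the high-altitude goats 1 to 3 and 2, 2351 and 3658 in the low-altitude goats 1 to 3. Spleen had the next highest mean, at 0 to 13.2 normalised CPM (median 0.0662), which few spleens carry, and 3 livers lay inside its range although the miRNA was called (log2 fold change 5.75 ± 1.36, adjusted p = 0.00375). By median kidney was next, at 0.778 to 2.21 normalised CPM (median 1.27), with the smallest fitted log2 fold change, 4.75 ± 1.26 (adjusted p = 0.0114). Entry 88-3p had liver counts of 253, 653 and 413 in the high-altitude goats 1 to 3 and 2287, 2 and 0 in the low-altitude goats 1 to 3, and kidney, next, had 2.15 to 4.98 normalised CPM (median 3.87) (log2 fold change 3.86 ± 1.18, adjusted p = 0.0314). Spleen (3.49 ± 1.04, SD, n = 6) lies within the spread of kidney (3.76 ± 1.09). Here 4 livers lay above kidney and 2 below it, and without low-altitude goat 1 the fold change was -1.09. conserve-chi-miR-3100-5p had liver counts of 899, 2035 and 331 in the high-altitude goats 1 to 3 and 349, 197 and 0 in the low-altitude goats 1 to 3. In all other tissues together only heart, kidney and muscle held reads, 19, 18 and 12 in all, and 1 liver held none. conserve-chi-miR-676-3p had no read in any of the 30 other libraries, and its liver counts were 4, 8 and 1 in the high-altitude goats 1 to 3 and 1042, 0 and 7 in the low-altitude goats 1 to 3, so that 1 liver carries it and no fold change is given. Each of these 4 calls was lost without at least 1 of the goats. With the goat as a block chi-miR-450-3p, entry 88-3p and conserve-chi-miR-676-3p were no longer called.

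**Figure D1:**
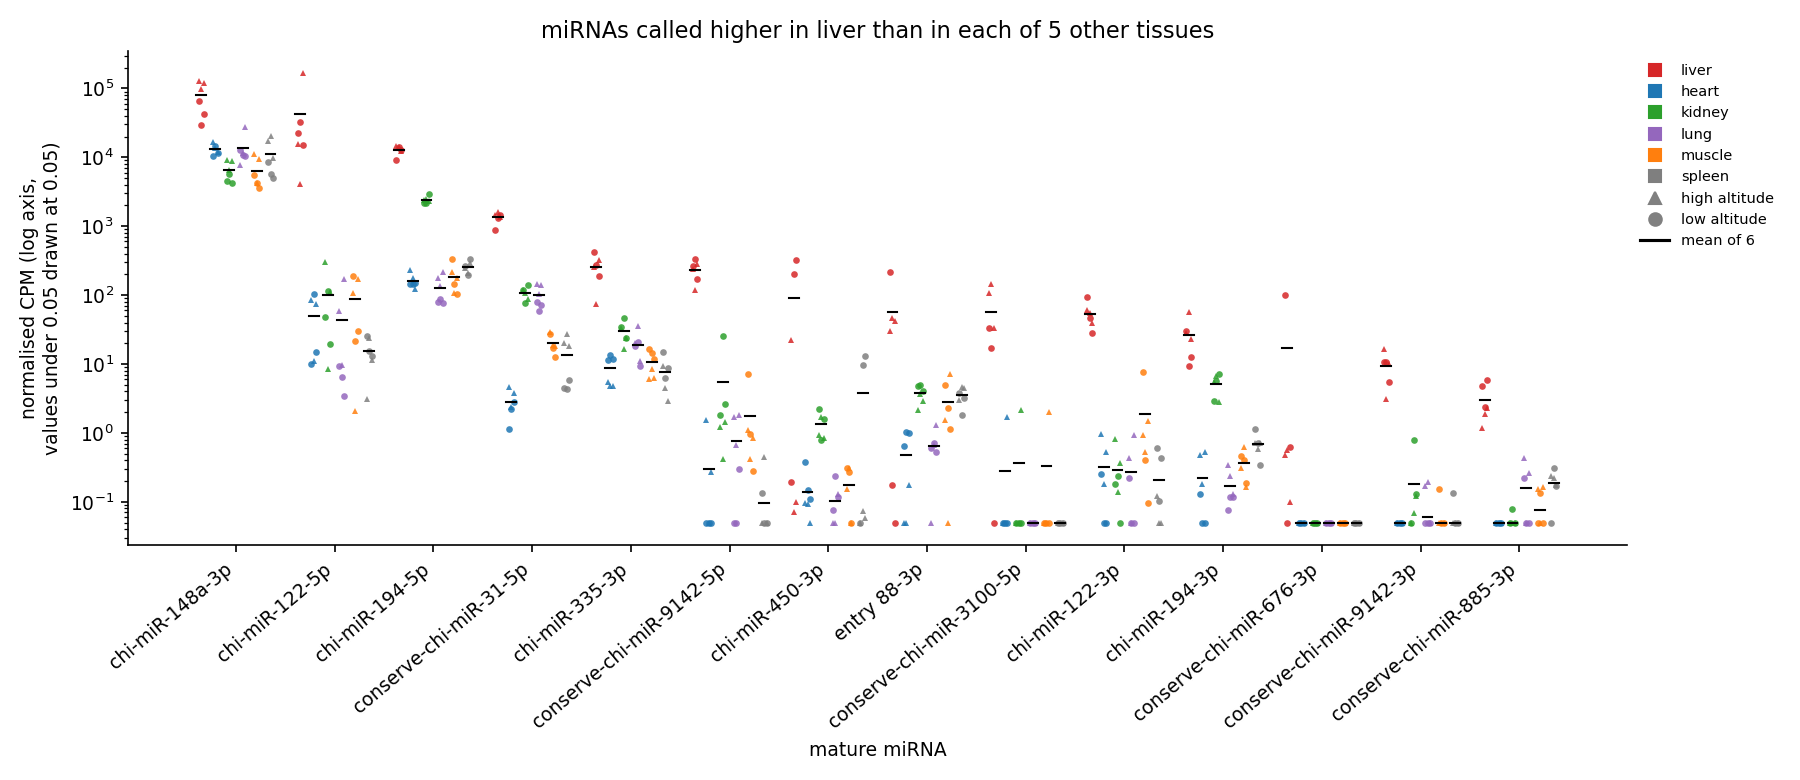
The 14 miRNAs called higher in liver than in each of the 5 other tissues, ordered by their mean in liver. Each symbol is 1 library (triangles, high altitude; circles, low altitude), coloured by tissue, with 6 libraries per tissue and black bars at their means. The axis is logarithmic in normalised CPM, and values under 0.05, zeros included, are drawn at 0.05.

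Only 4 miRNAs (0.288%) were called lower in liver than in each of the 5 tissues. chi-miR-10b-5p, encoded in the HOXD cluster, stood out by level, with 1523 to 2357 normalised CPM (median 1840.3) in liver. The means were 15034 in spleen, 15155 in heart, 17143 in lung, 197536 in muscle and 393223 in kidney, so that spleen was the next lowest, within the spread of heart and lung. Liver was the lowest tissue in 6 of 6 goats, and only the lowest lung library, at 2275, fell inside the range of liver. The log2 fold change was -2.88 ± 0.56 against spleen (adjusted p = 0.00051) and -7.70 ± 0.70 against kidney (adjusted p = 2.35e-09). In the high-altitude libraries alone the log2 fold change against spleen was -3.47, with an adjusted p of 0.0717.

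The other 3 depleted miRNAs were scarce. chi-miR-504-5p had liver counts of 30, 28 and 21 in the high-altitude goats 1 to 3 and 5, 9 and 0 in the low-altitude goats 1 to 3. It was next lowest in lung, with spleen (7.53 ± 7.07, SD, n = 6) within the spread of lung (4.84 ± 4.34). Lung had 1.23 to 13 normalised CPM (median 3.72), overlapping with liver (log2 fold change -1.997 ± 0.51, adjusted p = 0.00838), while kidney reached a mean of 166. Liver was the lowest tissue in 6 of 6 goats. It was called in 11 of 17 alternatives and lost without high-altitude goat 3 or low-altitude goat 1. chi-miR-495-3p, of the imprinted DLK1-DIO3 cluster, had liver counts of 29, 34 and 18 in the high-altitude goats 1 to 3 and 0, 0 and 0 in the low-altitude goats 1 to 3. All low-altitude livers were at 0 and all high-altitude livers had reads, and spleen, next by mean within the spread of heart and lung, had 0 to 11.8 normalised CPM (median 7.84) (adjusted p = 0.00329, lowest in liver in 4 of 6 goats). With the goat as a block the call was lost, as was that of chi-miR-1249-3p below. The difference of this contrast between altitudes was not called (adjusted p = 0.133). chi-miR-1249-3p had liver counts of 12, 18 and 3 in the high-altitude goats 1 to 3 and 0, 0 and 0 in the low-altitude goats 1 to 3 and 0 to 1.49 normalised CPM (median 0.899) in heart, the next lowest tissue. It overlaps with heart, was lowest in liver in 3 of 6 goats (adjusted p = 0.0267) and turned to higher in liver than in heart in the high-altitude libraries alone, at a log2 fold change of 0.65. It was called in 7 of 17 alternatives, and only 1 of the 6 fits that leave out a goat called it. With all low-altitude livers at 0 the fold changes over both altitudes depend on the small count that edgeR adds, and none is given for these last 2.

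A single miRNA (0.0719% of all), conserve-chi-miR-181a-3p, had all 6 livers below all 30 other libraries, with 12.6 to 22.7 normalised CPM (median 17) in liver and a lowest value of 24.1 elsewhere. It was named after its values were seen. Its partner conserve-chi-miR-181a-5p, known from lymphocytes, had 3038 to 7539 normalised CPM (median 6099.8) in liver and passed the test against all 5 tissues but not the fold threshold against all of them, the smallest difference being to kidney (-0.89 ± 0.23). The 5p arm was called lower in liver than in heart, lung and spleen, and the 3p arm than in lung, muscle and spleen.

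Among the miRNAs higher in liver than in any 1 tissue, chi-miR-148a-3p was the most abundant by mean in all 5 comparisons. Among the lower ones the most abundant miRNA depended on the other tissue. Against heart and muscle it was chi-miR-133a-3p, a miRNA of striated muscle, with 311 to 3133 normalised CPM (median 2059.6) in liver and means of 164855 in heart and 415307 in muscle (log2 fold changes -6.41 ± 0.56 and -7.80 ± 0.59, adjusted p = 4.38e-10 and 1.62e-11). Its counts equal those of chi-miR-133b-5p in every library, so the entries are a single measurement. Against kidney it was chi-miR-10b-5p, given above. Against lung it was chi-miR-10a-5p, encoded in the HOXB cluster, with 1205 to 3500.4 normalised CPM (median 1829) in liver and 24737 to 257634 normalised CPM (median 46889.6) in lung (log2 fold change -5.29 ± 0.62, adjusted p = 2.12e-07). Liver and lung do not overlap for it, whereas liver and heart do (heart 622 to 3278 normalised CPM (median 1258)). Against spleen it was chi-miR-143-3p (log2 fold change -1.63 ± 0.36, adjusted p = 0.00217), with no overlap between liver and spleen.

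**Figure D2:**
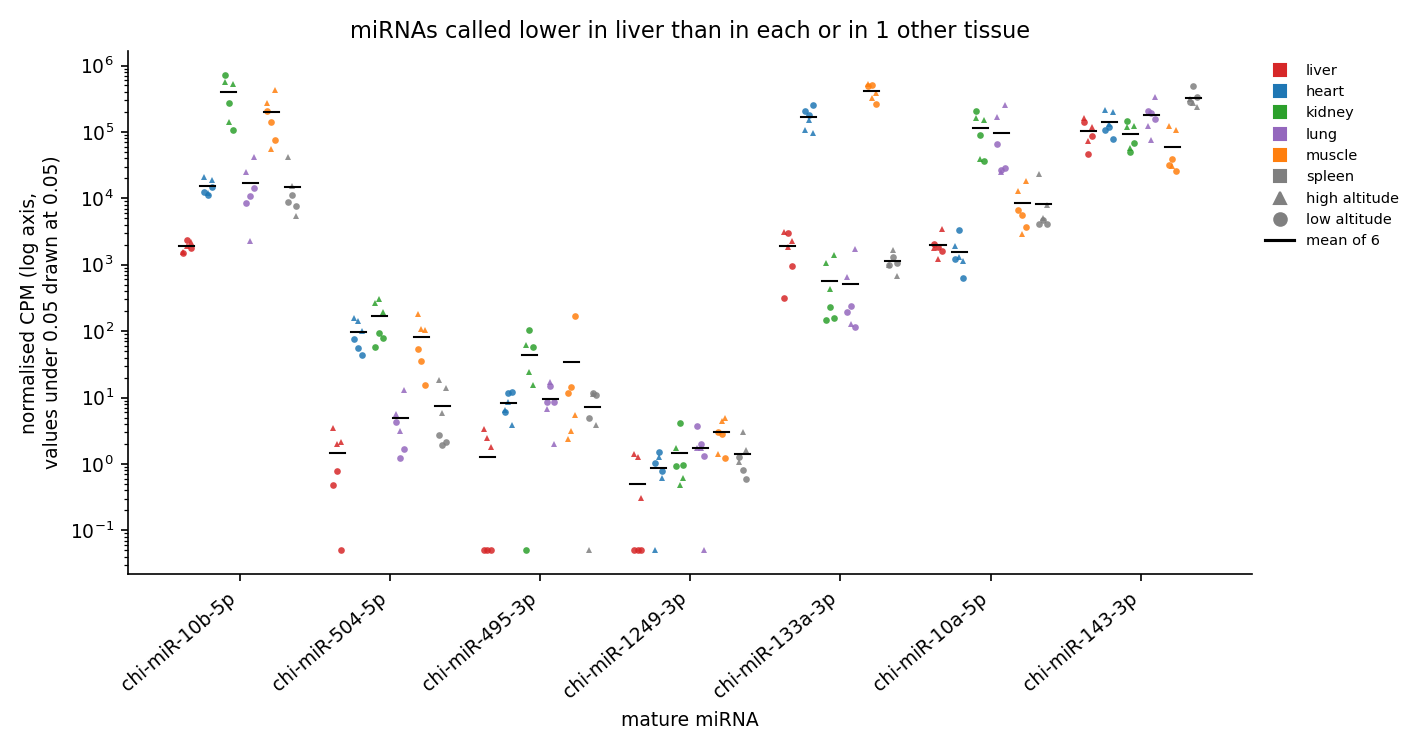
The 4 miRNAs called lower in liver than in each of the 5 other tissues, and the most abundant miRNA called lower in liver than in single tissues. Each symbol is 1 library (triangles, high altitude; circles, low altitude), coloured by tissue, with 6 libraries per tissue and black bars at their means. The axis is logarithmic in normalised CPM, and values under 0.05, zeros included, are drawn at 0.05.

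Lists of miRNAs known from cell types and pathways describe the liver profile as groups. Against the mean of the other tissues, 8.99% of all miRNAs were higher and 3.09% lower, and these shares are the background of each list. Lists and members were chosen with earlier results of these data known. The hepatocyte list also holds the markers of the tissue label, so its counts describe the profile and are not independent support for it. Of the 20 entries of the hepatocyte list, 15 were higher than the mean of the other tissues and 0 lower, beside 8.99% and 3.09% of all miRNAs, with a median log2 fold change of 2.37 beside -0.17 over all miRNAs, and 6 were among the liver-enriched, beside 1.01% of all miRNAs. Single tissues gave 13 higher and 1 lower for heart (all miRNAs 6.47% and 5.25%), 8 and 0 for kidney (3.52% and 5.54%) and 11 and 1 for muscle (6.4% and 7.05%). For lung they were 12 and 0 (4.46% and 4.03%) and for spleen 13 and 0 (4.67% and 4.39%). The lowest, median and highest summed level in liver was 155539, 196150 and 395105 normalised CPM, with means of 94894 in heart and 99098 in muscle, the next tissues. miR-192 and miR-802 have no entry. The members that were not called were chi-miR-30e-5p and -3p, chi-miR-22-5p and -3p and chi-miR-101-5p. Among the called ones outside the enriched 14, chi-miR-455-5p had 98.8 to 173 normalised CPM (median 131) in liver, above all 30 other libraries, and spleen was next at 65.5. It was not called against spleen, kidney or lung alone (edgeR adjusted p = 0.395, 0.103 and 0.0909). conserve-chi-miR-885-5p had 5.82 to 29.2 normalised CPM (median 14.8), with muscle next at 3.23 and no call against muscle alone.

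In the list of lipid and glucose metabolism 3 of 25 entries were higher and 2 lower, beside 8.99% and 3.09% of all miRNAs, with a median log2 fold change of 0.41. With scaling by the library total 6 were higher and 0 lower, beside 160 and 19 of all 1391 miRNAs under that scaling. The lower ones were both arms of miR-378, of the PPARGC1B gene, of which chi-miR-378-3p had 1161 to 2073 normalised CPM (median 1452) in liver and a mean of 58234 in muscle (log2 fold change against the mean of the other tissues -1.83 ± 0.21). Counts in liver were 12103, 19385, 0, 8982, 9332 and 0 for chi-miR-107-5p in the same order of goats, a pattern of zeros beside large counts that is taken up below. It and both arms of miR-144 are the higher ones, and all of them have such zeros. chi-miR-33a-5p, from an intron of SREBF2, had 10.6 to 30.5 normalised CPM (median 15.4) in liver and was not called at the fold threshold (1.43 ± 0.31, adjusted p = 0.00127). The summed level of the list in liver, 22464, 27416 and 38657 normalised CPM for the lowest, median and highest, was under the means of heart (112161) and muscle (98364). The liver mean of 28564 was near those of kidney (27182), lung (26889.8) and spleen (21585). In single comparisons 4 were higher and 5 lower than in heart (all miRNAs 6.47% and 5.25%) and 5 were higher and 4 lower than in muscle (all miRNAs 6.4% and 7.05%). miR-33b has no entry.

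The epithelial list, which in liver stands for bile ducts, had 5 of 14 entries higher and none lower against the mean of the other tissues, beside 8.99% and 3.09% of all miRNAs, with a median log2 fold change of 1.63. The sign comes from heart, muscle and spleen, with medians of 3.95, 3.40 and 3.89, whose summed levels averaged 39.2, 62.7 and 44.5 normalised CPM, under every liver (518, 933 and 1464 for the lowest, median and highest). Kidney (3496) and lung (6853) lay higher, with 4 and 6 entries lower in liver, beside 5.54% and 4.03% of all miRNAs. chi-miR-141-3p was the most abundant in liver, at 101 to 687 normalised CPM (median 477), and conserve-chi-miR-375-3p was at 0 in all livers.

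Of the 15 entries for stellate cells and fibroblasts, 0 were higher and 0 lower beside 8.99% and 3.09% of all miRNAs (median -0.38), and 4 were lower in liver than in spleen, beside 4.39%. The list summed to 54373, 108452 and 175765 in liver for the lowest, median and highest, most of it chi-miR-143-3p, with means of 147901 in heart, 102509 in kidney, 194595 in lung, 70050.4 in muscle and 337469 in spleen, and 4 entries, copies of miR-145 and miR-214, were at 0 in all livers. miR-152 has no entry. For endothelium 1 of 9 was higher and 2 lower, beside 8.99% and 3.09%, and with scaling by the library total 2 were higher and 0 lower, beside 160 and 19 of all 1391 miRNAs under that scaling. The median of -0.09 turned to 0.31 with that scaling and to 0.33 with the entry at 0 in liver set to its detection bound. Single tissues went different ways: 0 were higher and 4 lower than in heart (all miRNAs 6.47% and 5.25%), with a median of -2.06, and 1 was higher and 3 lower than in spleen (all miRNAs 4.67% and 4.39%), with a median of 1.11. The higher one, conserve-chi-miR-139-5p, had 124 to 261 normalised CPM (median 161) in liver with heart next at 126. chi-miR-221-5p and chi-miR-222-5p were the lower ones. The endothelial sum in liver was 12543, 15273 and 21887, mostly chi-miR-126-5p, and conserve-chi-miR-222-3p was at 0.

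For Kupffer cells and leukocytes 0 of 17 entries were higher and 2 lower, beside 8.99% and 3.09% of all miRNAs (median 0.40), and with scaling by the library total 2 were higher and 1 lower, beside 160 and 19 of all 1391 miRNAs under that scaling. Against single tissues 7 were lower than in spleen (all miRNAs 4.39%) and 6 higher than in muscle (all miRNAs 6.4%). The sum was 18376, 25635 and 31317 in liver for the lowest, median and highest and averaged 64168 in spleen, 27079.9 in lung and 7049 in muscle. Sums of liver and lung are alike, but chi-miR-21-5p leads the sum, and over the entries 0 were higher and 3 lower than in lung (all miRNAs 4.46% and 4.03%), with a median of -1.23. In this list no entry was at 0 in all livers. The lower ones were chi-miR-150-5p, of mature lymphocytes, at 38.6 to 387 normalised CPM (median 88.1) in liver and a mean of 2848 in spleen, and chi-miR-342-3p. The erythroid list sums to 318, 4216 and 3960.0 in the high-altitude livers and 7550.1, 6128 and 6449.9 in the low-altitude livers, under the means of 27877 in heart and 39644 in muscle. The liver mean of 4770 was within the spread of lung (5803 ± 5235, SD, n = 6) and spleen (4054 ± 3726) and above kidney (554 ± 374). Liver of high-altitude goat 1 stands apart there, with 16 counts of conserve-chi-miR-486-5p, the most abundant member, against 39241 or more in the other livers. Both arms of miR-144 were higher, 2 of 4 entries beside 8.99% of all miRNAs (median 1.70). Against heart, muscle and spleen the median was -0.53, -0.73 and -0.61, while it was 3.28 against kidney and 6.89 against lung, so the sign depends on the tissue. Among the entries 0 were higher and 1 lower than in heart (all miRNAs 6.47% and 5.25%), 0 were higher and 1 lower than in muscle (all miRNAs 6.4% and 7.05%), 1 was higher and 0 lower than in spleen (all miRNAs 4.67% and 4.39%), 1 was higher and 0 lower than in kidney (all miRNAs 3.52% and 5.54%) and 2 were higher and 0 lower than in lung (all miRNAs 4.46% and 4.03%). miR-451 has no entry. Blood left in the tissues was not tested.

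For striated muscle 6 of 12 entries were lower and none higher, beside 3.09% and 8.99% of all miRNAs (median -1.81), and with scaling by the library total 1 was lower, beside 19 of all 1391 miRNAs. The sums in liver were 6612, 3838 and 4899.7 normalised CPM at high and 657, 6264 and 1936 at low altitude, led by chi-miR-133a-3p. The means were 364356 in heart and 852247 in muscle, beside 1242 in kidney, 1157 in lung, where 1 library held 3989, and 2307 in spleen. The sign comes from heart and muscle: of the entries 0 were higher and 10 lower than in heart (all miRNAs 6.47% and 5.25%) and 0 were higher and 10 lower than in muscle (all miRNAs 6.4% and 7.05%), whereas 3 were higher and 0 lower than in kidney (all miRNAs 3.52% and 5.54%), 4 were higher and 1 lower than in lung (all miRNAs 4.46% and 4.03%) and 0 were higher and 0 lower than in spleen (all miRNAs 4.67% and 4.39%). The medians against kidney, lung and spleen were 1.20, 1.804 and 0.75. These numbers count the equal entries chi-miR-133a-3p and chi-miR-133b-5p under both names. Kept once, chosen after seeing the data, 5 of 11 entries were lower by the fit with all entries, beside 3.09% of all miRNAs. The mean sums were then 2107 in liver, 199501 in heart and 436940 in muscle. Both arms of miR-208a and chi-miR-208b-5p were at 0 in all livers. Whether muscle RNA entered the liver libraries was not tested. For the HOX-cluster and kidney list 7 of 12 entries were lower and 2 higher, beside 3.09% and 8.99% (median -2.86). The higher ones were both arms of miR-204, from an intron of TRPM3, and chi-miR-204-5p had 345 to 776 normalised CPM (median 417) in liver and a mean of 805 in kidney, where neither arm was called lower in liver. The sum in liver, 3713, 3959.8 and 6111 and led by chi-miR-10a-5p and chi-miR-10b-5p, lay under the kidney mean of 509204 and under the means of the other tissues (16782 in heart to 206868 in muscle). Even so, 3 were higher and 1 lower than in heart (all miRNAs 6.47% and 5.25%), and chi-miR-211-3p was at 0. For airway cilia 1 of 8 entries was lower, beside 3.09% (median -0.90), and 7 were lower than in lung, beside 4.03%. That list summed to 12.7, 27.9 and 37.5 in liver, most of it chi-miR-34c-5p, beside a mean of 4913 in lung, with chi-miR-449b-3p at 0.

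The remaining lists are broad families. For let-7 and miR-98 1 of 15 entries was higher and none lower, beside 8.99% and 3.09% of all miRNAs (median 0.09), with sums of 19868, 31942 and 64144 in liver, mostly chi-let-7f-5p, and let-7b has no entry. The higher one, chi-let-7a-3p, is subject to the arm labels described below. For the imprinted DLK1-DIO3 cluster 2 of 84 entries were higher and 2 lower, beside 8.99% and 3.09%, with a median of -0.07 that turned to 0.32 with scaling by the library total and to 0.18 with entries at 0 on one side set to their detection bound. Against kidney 14 of them were lower in liver, beside 5.54% of all miRNAs, whereas 4 were higher and 1 lower than in heart (all miRNAs 6.47% and 5.25%) and 5 were higher and 1 lower than in spleen (all miRNAs 4.67% and 4.39%). The cluster summed to 4139, 5536 and 12168 normalised CPM in liver, led by chi-miR-127-3p, and averaged 21277 in kidney, 17600 in muscle and 3779 in spleen. The muscle mean is carried by a single library, of low-altitude goat 3, at 80708, and the other muscles had 2577 to 8436, so that liver and muscle cannot be ordered. In this cluster 13 of the 84 entries were at 0 in all livers.

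**Figure D3:**
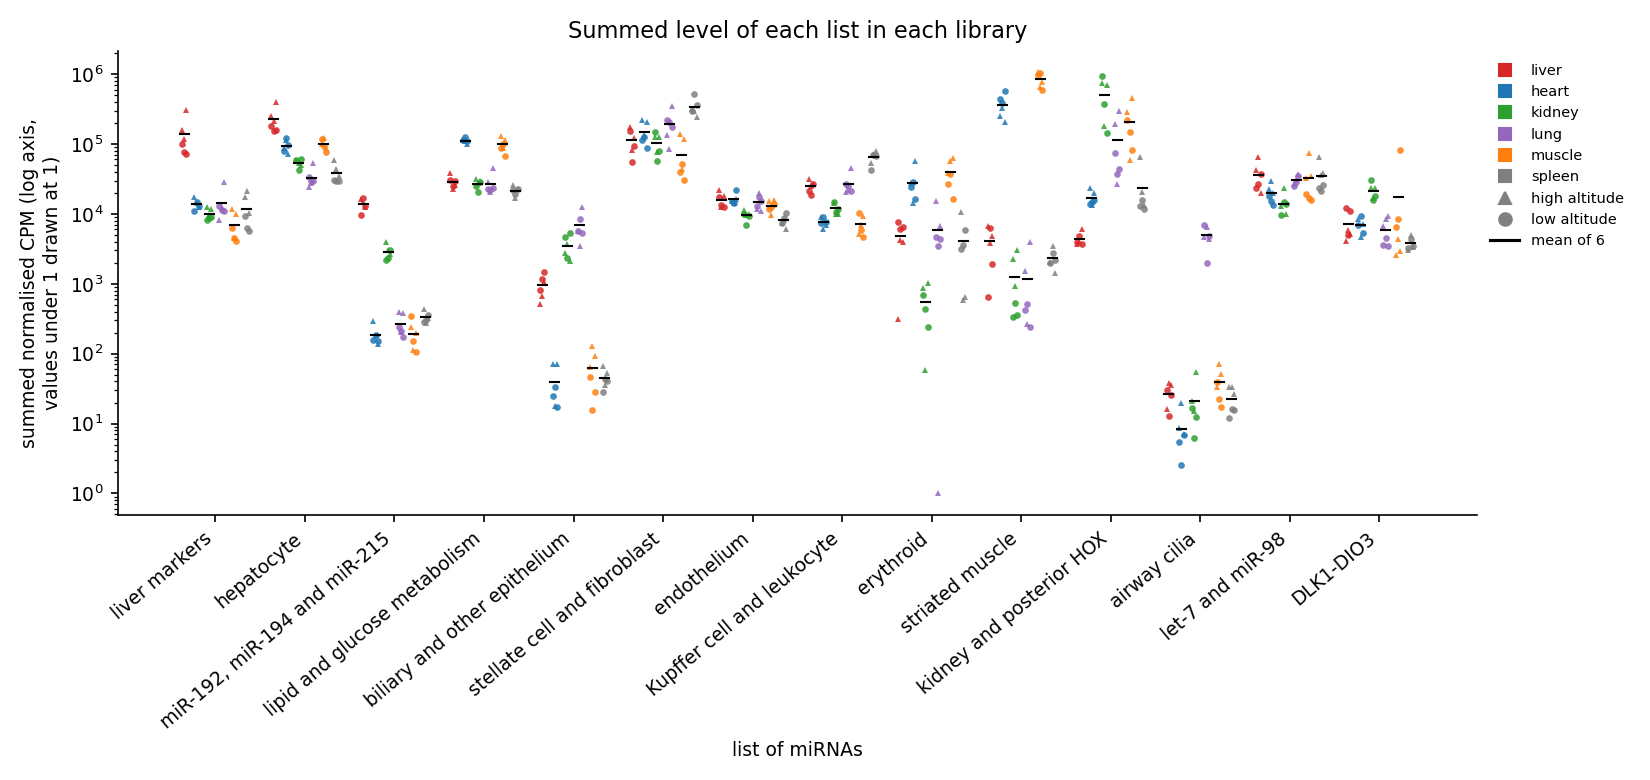
Summed normalised CPM of each list of miRNAs in each library. Each symbol is 1 library (triangles, high altitude; circles, low altitude), coloured by tissue, with black bars at the mean of the 6 libraries of a tissue. The axis is logarithmic, and sums under 1 are drawn at 1. Lists share some members, for example miR-144 in the lists of lipid and glucose metabolism and of erythroid cells.

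The liver profile was then compared between the populations, as the difference at high altitude minus that at low altitude of the contrast of liver with the mean of the 5 other tissues. edgeR called 1 miRNA (0.0719%), and 37 had an unadjusted p under 0.05. Entry 48-3p had liver counts of 180, 283 and 367 in the high-altitude goats 1 to 3 and 0, 0 and 0 in the low-altitude goats 1 to 3. All high-altitude livers had it and no low-altitude liver did, while the other tissues held few reads of it apart from 262 counts in lung of low-altitude goat 2, the only lung library with any. It is among the miRNAs with zeros beside large liver counts that are described below, and its partner, entry 48-5p, had 0 counts in all livers and 1515 elsewhere. The fitted log2 difference of 13.74 (adjusted p = 0.03) rests on a group at 0 and gives a direction, not a size. The call was lost without high-altitude goat 1 or 2 and without low-altitude goat 1 or 2. The fit without low-altitude goat 3 called 1 miRNA. With the goat as a block edgeR called 0 (39 at an unadjusted p under 0.05), and DESeq2 without the block called 19. As breed, rearing and altitude go together, which of them this entry follows cannot be told apart.

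Some values may depend on how reads were assigned to arms and copies, which was not tested. In 84 miRNAs a liver library with 0 counts stands beside another liver with at least 100. chi-let-7a-5p had 81496 counts in liver of high-altitude goat 2 and 0 in the other 5 livers. chi-let-7a-3p had 605 counts in that liver and 26852 to 52078 in the others, so that the entries exchange places in 1 library. Counts alone do not show which arm was present, and levels of both let-7a entries in liver are uncertain by arm. Whether the zeros of the other miRNAs come from the assignment to arms was not tested. The supplementary tables of the study hold mature sequences for 2 of the liver miRNAs above, 1 enriched and 1 depleted, and they are shown because these calls rest on single arms. Capitals mark the seed, bases 2 to 8, with which a miRNA pairs to its targets, and the seeds differ.
chi-miR-450-3p: aTTGGGAGcattttgcatgcat
chi-miR-495-3p: aAACAAACatggtgcacttct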

How the data were processed

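Small RNA of 6 tissues of 6 goats was sequenced on an Illumina HiSeq 2500. The authors deposited whole-number read counts per mature miRNA and library; according to the submitters' notes CASAVA 1.8 made the base calls and Bowtie aligned the reads, and the paper names miRDeep2 for detecting the miRNAs. Every one of the 1391 miRNAs has at least 3 counts in a library, and no further filter was used. Reads include PCR copies and are not independent molecules.

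All 36 libraries were fitted in 1 edgeR 4.0.16 model (R 4.3.3; TMM, glmQLFit, glmQLFTest) with 12 groups of tissue and altitude, and p-values were two-sided and Benjamini-Hochberg adjusted over all miRNAs. Fold changes against the 5 tissues take the mean of their log2 levels, and each SE is the fold change divided by the root of its F statistic. Liver-enriched or depleted means called in all 5 single-tissue contrasts. The fits were tested on simulated data, of which no result is given here. Altitude with replicate number was taken as the goat, since each goat gave all tissues; goat as a block was an alternative. Others were DESeq2 1.42.0, RLE or library-size scaling, 6 tissue groups, filterByExpr, glmTreat, no minimum fold, identical entries kept once, arms summed, 1 altitude, and leaving out each goat.

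Named miRNAs were the 10 most abundant in liver, the 20 most abundant enriched, the 15 most abundant depleted, for each tissue the most abundant called higher and lower, the top 5 altitude calls, and list members; others named were chosen after their values were seen. Members and lists were chosen with earlier results of these data known. Python 3.11.15 with pandas 2.3.3 made the tables.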

Additional observations from a re-analysis of the deposited data

Results flagged for a closer look

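Among 32 groups of 6 livers (each named miRNA and measure), the Dixon gap of the highest or lowest library was over its 95% limit in 2, with levels taken as log2(CPM + 1) and gaps given on that scale, and chance alone takes about 5% of groups over it. conserve-chi-miR-31-5p was low in liver of low-altitude goat 1, at 869 normalised CPM, with a gap of 0.653 of the range. The other 5 livers had 1475, 1633, 1382, 1312 and 1440.2. conserve-chi-miR-676-3p was high in the same liver, with 1042 counts and a gap of 0.895 of the range, and the other livers had 0 to 8 counts. The choice of scale matters. On plain CPM the gap was 0.58 of the range for conserve-chi-miR-31-5p, under the limit, and 0.994 for conserve-chi-miR-676-3p, while chi-miR-122-5p (0.822), entry 88-3p (0.786) and chi-miR-10a-5p (0.643) would be over it. conserve-chi-miR-31-5p was called without each goat, low-altitude goat 1 among them. conserve-chi-miR-676-3p was lost without each of 5 goats, so that its loss without low-altitude goat 1 does not single out this library.

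Entry 48-3p was taken up because its liver contrast differed between the altitudes by the edgeR interaction test, with a log2 difference of 13.74 ± 2.64 (SE, adjusted p = 0.03). Its counts were 180, 283 and 367 in the high-altitude livers and 0 in each low-altitude liver, and lung of low-altitude goat 2 had 262. It is among the miRNAs with 0 counts in a liver beside at least 100 in another. The call was lost without high-altitude goat 1 or 2 and without low-altitude goat 1 or 2, while the fit without low-altitude goat 3 called 1 miRNA. Breed, rearing and altitude cannot be told apart here, and a cause was not tested.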

How the results depend on the processing

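Of the fold changes of named miRNAs, tissue specificity values, shares and list sums, 622 kept their direction and side of the threshold or their value, 69 were no longer called, 7 became called, 10 moved and 4 reversed. Of the counts and library measures 154 stayed within 1.5 times the reported value, or for measures within the spread between goats, and 44 did not. Of the 14 enriched miRNAs 5 were called under all 17 alternatives that keep arms apart (chi-miR-122-5p, chi-miR-194-5p, chi-miR-148a-3p, chi-miR-335-3p and conserve-chi-miR-31-5p), and 8 without each goat. Of the 4 depleted 0 were called under all, and chi-miR-10b-5p was lost only in the high-altitude libraries alone.

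With goat as a replicate block, which makes the comparison paired within goats, 84 miRNAs were higher and 38 lower than the mean of the other tissues, 12 were enriched and 3 depleted, and 0 contrasts differed between altitudes in place of 1. chi-miR-450-3p, conserve-chi-miR-676-3p, entry 88-3p, chi-miR-1249-3p and chi-miR-495-3p were lost, and conserve-chi-miR-662-1-3p was gained as enriched and conserve-chi-miR-95-3p as depleted.

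Against the mean of the other tissues, the 125 higher became 295 with 6 tissue groups, 77 with DESeq2, 69 with glmTreat, 58 with high-altitude and 78 with low-altitude libraries only. The 43 lower became 67 with DESeq2, 11 with glmTreat, 17 at high altitude, 19 with library size only and 70 with no minimum fold change. The share of higher calls was 74.4% and became 89.4% with library size only. For heart it went from 55.2% to 76.7%, for kidney from 38.9% to 59.7% and for muscle from 47.6% to 76.5%, and the median log2 fold change of all miRNAs rose from 0.00 to 0.50 for heart and 0.71 for muscle.

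Calls against heart, kidney, lung, muscle and spleen were 163, 126, 118, 187 and 126, with glmTreat 88, 53, 60, 106 and 49, and at high altitude alone 56, 44, 54, 94 and 30. At low altitude alone kidney gave 68 and spleen 76; with arms summed, over fewer features, kidney gave 83 and muscle 119. The 14 enriched became 9 with glmTreat, 9 at high and 5 at low altitude. The 4 depleted became 1 with 6 tissue groups, 2 with glmTreat, 0 at high altitude and 8 with no minimum fold change. DESeq2 called 19 contrasts differing between altitudes. Fewer libraries, fewer features or a stricter null make some of these smaller by construction; otherwise the cause was not tested.

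Without each goat in turn, kidney gave 81 to 113 calls, enriched 9 to 12, depleted 2 to 5 and altitude differences 0 to 3. The log2 fold change of entry 88-3p against kidney ran from -1.09 to 3.95 and reversed without low-altitude goat 1. Other reversals were chi-miR-26a-5p against the mean of the other tissues (-0.11 at high altitude, 0.14 reported), chi-miR-143-3p against the same (0.11 with library size only, -0.34 reported) and chi-miR-1249-3p against heart (0.65 at high altitude, lower over both altitudes). With identical entries kept once, chosen after seeing the data, the share of the most abundant miRNA was -12 points in liver minus others, -10.1 reported. The cause was not tested.

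Limits: 3 goats per population, breed, rearing and altitude joined, and 1 library per tissue and goat. At the depth of the liver libraries 3 counts equal 0.326 to 0.422 CPM, so miRNAs under 1 CPM rest on few reads and their absence from a library is not shown. In some miRNAs counts of 0 stand beside at least 100, so that their liver levels are uncertain, and the cause was not tested. Fold changes against groups at 0 have no size. The reported direction of small changes depends on the scaling, and why was not tested.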

Other observations

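Another group of miRNAs was called in liver against 4 of the 5 tissues, 13 higher and 8 lower of 1391 in all. Of those higher, kidney was the missing tissue for chi-miR-215-5p, chi-miR-204-5p and -3p, chi-miR-335-5p, conserve-chi-miR-31-3p and conserve-chi-miR-148a-3p. chi-miR-148a-5p, the partner arm of the leading enriched miRNA, had 45.4 to 356 normalised CPM (median 146) in liver and missed lung, where its mean was 61.8. conserve-chi-miR-7846-3p had a mean of 20.8 in liver and 6.66 in spleen. Of those lower, conserve-chi-miR-95-3p had 0.286 to 1.82 normalised CPM (median 0.488) in liver, against means of 161 in heart and 114 in muscle, and missed kidney (2.24) by the fold threshold (log2 fold change -1.36 ± 0.42, adjusted p = 0.0326). With the goat as a block it was called lower than all 5 tissues. chi-miR-1468-5p had a mean of 97.5 in liver and 2824 in heart. These miRNAs were chosen after their values were seen.

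The tissue specificity index, which is 1 for a miRNA found in a single tissue and 0 for even levels, was over 0.85 with liver as the top tissue for 189 of 1391 miRNAs, all 14 enriched among them. Of these 126 had under 1 CPM in liver, 101 had reads in 1 liver only, and 21 had reads in all 6 livers, while 12 reached 100 CPM. A high index in liver thus often rests on scarce reads of 1 animal. On the scale of log2(CPM + 1) the index was 0.676 for chi-miR-122-5p (0.999 on CPM), 0.422 for chi-miR-194-5p (0.961) and 0.208 for chi-miR-148a-3p (0.894).

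Entry 139-3p and entry 214-5p also had all 6 livers above all 30 other libraries without being enriched in all 5 contrasts, at means of 5.17 and 3.68 normalised CPM in liver, and were chosen after their values were seen.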
